A study of Homo sapiens with 4 samples.

Results

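Rab GTPases are the largest family of small GTPases that direct membrane traffic, and 37 of their genes were measured in each of 4 ribosome profiling libraries, out of 8568 transcripts present in all 4. A gene was taken as a member when its symbol was RAB followed by a number and at most a letter from A to D and when it was listed in every library. There were 40 such symbols in at least 1 library. RAB26 was listed only in G418 B, RAB27B was missing from untreated A and RAB20 from G418 B, so these 3 were left out. The cells were HEK293T, an immortalized line from human embryonic kidney with the large T antigen of SV40 virus. They were either left untreated or given the aminoglycoside G418 at 0.5 mg/mL (500 µg/mL) for 24 hr, each in biological duplicate, and the libraries are called untreated A, untreated B, G418 A and G418 B. Ribosome protected fragments (RPFs) on mRNAs numbered 6082600 for untreated A, 2440204 for untreated B, 5677910 for G418 A and 4763858 for G418 B. All cells were of 1 line, and 7 of 8 genes expected in HEK293T were in all 4 libraries, among them VIM, NEFM, NEFL, INA, LHX1 and NCAM1. LHX1 was low, with 12 to 17 counts on its coding sequence per library. Of 11 markers of other cells, 3 were in at least 1 library. COL1A1 was the only one in all 4 libraries, and ALB, PTPRC, CD3E, PECAM1 and HBB were in none.

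A Rab protein cycles between a GDP-bound form held in the cytosol and a GTP-bound form on a membrane, where it recruits effectors that tether, move or fuse vesicles. Membrane binding depends on geranylgeranyl lipids that Rab geranylgeranyl transferase attaches to cysteines at the very C terminus, after Rab escort protein has presented the new Rab to the enzyme. Each Rab marks its own compartment, for example RAB1 between the endoplasmic reticulum and Golgi, RAB5 on early endosomes, RAB7 on late endosomes and RAB11 on recycling endosomes. G418 binds the decoding center of the ribosome and raises readthrough of stop codons, in which a near-cognate tRNA is accepted at the stop codon and translation goes on to the next in-frame stop. In a Rab protein, a readthrough extension would follow the cysteines that carry the lipids.

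The end of the coding sequence (CDS) is shown because it holds both the cysteines and the stop codon on which readthrough acts. The lines give the last 15 nt of the CDS, the normal termination codon (NTC) and the sequence after it, 30 nt in all, written as DNA on the coding strand from GENCODE version 44 on hg38. Capitals mark the stop codon and the nucleotide after it (position +4). The cysteine codons are tgt and tgc, read in frame from the first base. The first 9 are genes tested for readthrough, the next 3 are RAB11A, RAB7A and RAB5A, whose extensions are among the shortest, and the last 2 lack cysteine codons in the stretch.
RAB1A: ggtggaggttgctgcTAAAatttgcctcca
RAB1B: ggcggtggctgttgcTAGGaggggcacatg
RAB6A: ggaggctgttcctgcTAATctcccatgtca
RAB18: tattgctctgtgttaTAAActctgggaaat
RAB21: tgctgttcttctggaTAACtgttcacgcct
RAB32: aaatcccagtgttgcTGATatatggcttct
RAB10: aagagcaaatgctgcTGAGcattctcctgt
RAB11B: tgctgccagaacctgTGACccctgcgcctc
RAB35: aagaaacgctgctgcTAATggcacccagtc
RAB11A: tgctgtcagaacatcTAAGgcatttctctt
RAB7A: gaaagctgcagttgcTGAGggggcagtgag
RAB5A: cagtgttgtagtaacTAAAcctctagtttg
RAB8A: aacaccgccttactcTGAGcctcgctcagc
RAB34: cattcctccagagctTGACccctggacatt
The stop codons of these transcripts lie at chr2:65088493-65088495 (RAB1A, minus strand), chr11:66276236-66276238 (RAB1B, plus), chr11:73677898-73677900 (RAB6A, minus), chr10:27538049-27538051 (RAB18, plus), chr12:71785671-71785673 (RAB21, plus), chr6:146554603-146554605 (RAB32, plus), chr2:26135019-26135021 (RAB10, plus), chr19:8403556-8403558 (RAB11B, plus) and chr12:120097245-120097247 (RAB35, minus). Those of the others are at chr15:65887838-65887840 (RAB11A, plus), chr3:128813420-128813422 (RAB7A, plus), chr3:19983821-19983823 (RAB5A, plus), chr19:16132322-16132324 (RAB8A, plus) and chr17:28714572-28714574 (RAB34, minus).

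Of the 35 Rab transcripts that matched GENCODE version 44, 29 (82.9%) had a cysteine codon among the last 5 codons and 23 (65.7%) had at least 2. Over all 8253 matched transcripts the shares were 10.2% and 1.05%. The commonest ending placed cysteine codons at the end and 2 codons before it, with another codon between (RAB3A, RAB3B, RAB3C, RAB4B, RAB6A, RAB7A, RAB15, RAB33B and RAB39B). A further 7 ended in a pair of cysteine codons (RAB1A, RAB1B, RAB10, RAB22A, RAB31, RAB32 and RAB35). RAB11A, RAB11B, RAB21 and RAB30 had a pair followed by 3 other codons, and RAB5A, RAB5C and RAB24 a pair followed by 2. RAB13, RAB18, RAB23, RAB28 and RAB40C had a lone cysteine codon followed by 3 others, and RAB6B had a lone one followed by 4. RAB12 and RAB36 did not match the annotation and were not classified.

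The remaining 6, RAB2A, RAB2B, RAB6C, RAB6D, RAB8A and RAB34, had no cysteine codon among the last 5. The authors counted reads on 1 transcript per gene, and for RAB2A, RAB2B, RAB8A and RAB34, and for RAB6B, that transcript was not the MANE Select one, the transcript agreed between Ensembl and RefSeq as representative. The MANE Select transcripts of RAB2A and RAB2B end in a pair of cysteine codons, that of RAB34 in a pair followed by 1 codon and that of RAB8A in a lone cysteine codon followed by 3. The MANE Select transcript of RAB6B ends as that of RAB6A does. In the one counted, 183 nt of CDS remained after both ends of the CDS were left out. For these 5 genes, readthrough was therefore measured at the stop codon of another C terminus. RAB6C and RAB6D, copies of RAB6A, have no cysteine codon there in MANE Select either. In all, 25 of the 37 transcripts were MANE Select.

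The family used UGA at 19 genes (51.4%), UAA at 12 (32.4%) and UAG at 6 (16.2%), and all 8568 transcripts used them at 50.3%, 27.7% and 22.02%. At +4 the Rab genes had G at 16 (43.2%), C at 8, U at 8 and A at 5 (13.5%), where all transcripts had G at 32.2%, C at 23.2%, U at 14.6% and A at 29.98%. After the NTC, the distance to the first in-frame stop codon of the 3′UTR (3′TC) was 5 to 136 codons with a median of 24, against a median of 22 over all transcripts. It was 5 codons in RAB5A and RAB7A, 6 in RAB11A, 101 in RAB40C and 136 in RAB21. No Rab 3′UTR lacked an in-frame stop codon, and 4.69% of all transcripts did. Cysteine codons stood among the last 5 codons of the extension in 5 of the 35 matched genes (RAB8A, RAB10, RAB18, RAB23 and RAB31).

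The first comparison asked whether ribosomes passed the stop codons of Rab genes more often in G418. The ribosome readthrough score (RRTS) is the density of RPFs between the NTC and the first 3′TC, without the 6 nt next to the NTC, divided by the density on the CDS. By its length, the counted stretch includes the 3′TC codon itself. The readthrough reads are few. Summed over the 37 genes there were 26 in untreated A, 5 in untreated B, 222 in G418 A and 190 in G418 B, found on 13, 4, 28 and 25 genes. No untreated library held a readthrough read for 24 of the 37 genes, 31 had at least 1 in G418, and RAB2B, RAB4B, RAB6B, RAB6C, RAB24 and RAB39B had none in any library. The mRNA minimum for RRTS was a mean of 64 reads per library within each condition, which 23 genes met. Their summed RRTS was 2.06% for untreated A, 1.11% for untreated B, 14.8% for G418 A and 15.7% for G418 B. The means were 1.58% ± 0.674 and 15.2% ± 0.683 (SD, n = 2), a ratio of 9.62. The 6505 transcripts that met the same minimum had 1.99%, 1.81%, 15.8% and 15.1%, a ratio of 8.13. In G418 the summed Rab values overlapped those of all transcripts, and in untreated cells the Rab values were spread wider, with 5 reads behind the lower. The median over genes did not overlap in G418, at 9.38% and 12.6% for the 23 Rab genes and 19.97% and 18.04% for all 6505 transcripts, a difference that was not tested. In untreated A and B the medians were 1.20% and 0% for the Rab genes and 0% and 0% for all transcripts.

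**Figure D1:**
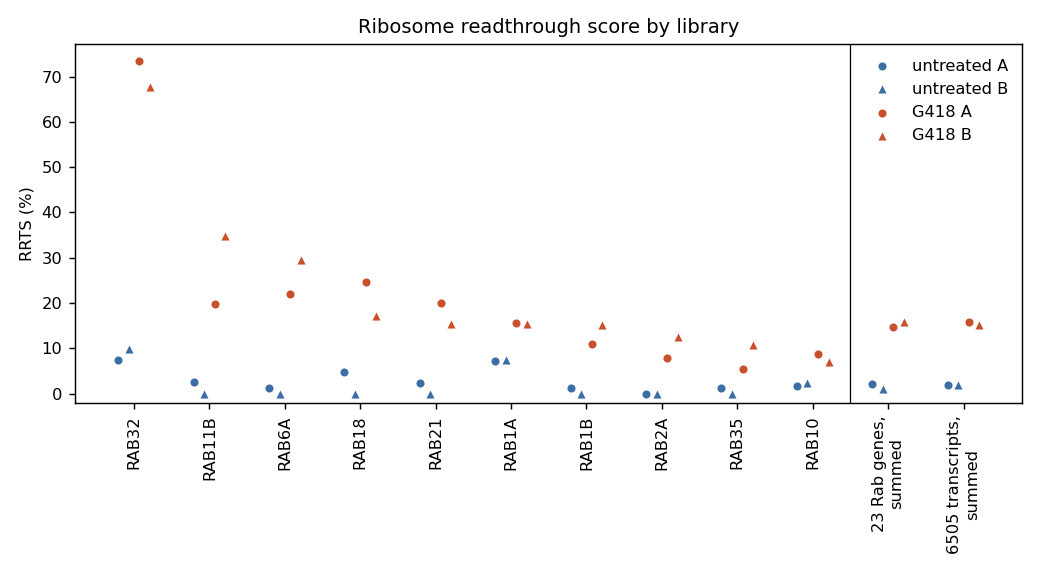
RRTS in percent (vertical axis) of the 10 Rab genes tested, ordered by their mean in G418, and of reads summed over 23 Rab genes and over 6505 transcripts (right of the line). Each point is a library, blue untreated and orange G418, circle replicate A and triangle replicate B. In each gene both G418 points lie above both untreated points, RAB32 is at 73.5% and 67.8%, and the summed Rab values lie at 14.8% and 15.7%.

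A test further needed at least 10 readthrough reads in all, which 10 of these 23 Rab genes had. Because most reads came from G418, this minimum favors genes that are high there. RAB2A, with no untreated readthrough read, met it through its G418 reads alone. Among the 10 genes 9 rose, RAB2A included, and 0 fell. This was by edgeR's quasi-likelihood test on readthrough reads with CDS reads as offset, at a Benjamini-Hochberg adjusted p under 0.05. Of all 2827 transcripts tested, 82.6% rose and 0.0707% fell. The Rab share, 9 of 10, thus lay near the background, and the median log2 fold change was 3.19 for the Rab genes and 3.18 for all transcripts. Of the 27 genes left untested, 13 had enough mRNA reads but too few readthrough reads. Both G418 libraries held a readthrough read in 78.3% of the 23 genes with enough mRNA reads and in 72.6% of the 6505 transcripts.

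Rabs of the endoplasmic reticulum and Golgi made up 5 of the 10. RAB1A, which acts in transport from the endoplasmic reticulum to the Golgi, had 5 and 2 readthrough reads in the untreated replicates and 13 and 11 in the G418 replicates. Its RRTS was 7.20% and 7.43% in untreated cells and 15.6% and 15.4% in G418, so the groups did not overlap. RAB1A was the only gene of the 10 that did not pass the test, with a log2 fold change of 1.07 ± 0.675 (SE) and an adjusted p of 0.125. From pooled reads the ratio of readthrough reads per CDS read was 2.13 (95% exact interval 0.892 to 5.87), which covers counting error only. Its untreated values were the highest of the 10 genes after those of RAB32 and overlapped them.

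RAB1B, its close relative in the same step, had 2 and 0 reads in untreated cells and 17 and 18 in G418. Its RRTS was 1.20% and 0% against 11.01% and 15.2%. It rose, with an adjusted p of 4.55e-06, and the pooled ratio was 15.3 (3.92 to 131.1). RAB6A, a Golgi Rab of retrograde transport, had 1 and 0 reads against 19 and 20. Its RRTS was 1.31% and 0% against 22.02% and 29.6%, and it rose with an adjusted p of 3.82e-06 and a pooled ratio of 25.1 (4.24 to 1015). RAB18, which is linked to the endoplasmic reticulum and lipid droplets, had 2 and 0 reads against 10 and 6. Its RRTS was 4.69% and 0% against 24.7% and 17.1%, and it rose with an adjusted p of 0.0164 and a pooled ratio of 5.84 (1.37 to 52.4).

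RAB2A, a Rab of the early secretory pathway, had no untreated readthrough read and 6 and 7 in G418, with RRTS of 7.89% and 12.6%. It rose with an adjusted p of 0.00207. Without an untreated read, RAB2A met the minimum of readthrough reads through its G418 reads alone. Its entry into the test thus already favored a rise. With 3 reads per untreated library taken as the smallest detectable count, its RRTS was at least 1.22-fold higher in G418. The stop codon counted for RAB2A belongs to the alternative C terminus without cysteine codons described above.

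RAB32 had the highest RRTS of the tested genes in both conditions. It is a Rab of late endosome and lysosome related organelles, such as melanosomes, and its CDS ends in a pair of cysteine codons before UGA with U at +4. RAB32 had 2 and 1 readthrough reads in untreated replicates and 22 and 20 in G418, and its RRTS was 7.41% and 9.75% against 73.5% and 67.8%. The means were 8.58% ± 1.66 and 70.6% ± 4.05 (SD, n = 2). It rose by 3.06 ± 0.697 (SE) on the log2 scale with an adjusted p of 3.78e-05, and the pooled ratio was 8.77 (2.80 to 44.3). In G418 both its values lay above every value of the next tested gene, RAB11B, while its log2 fold change was below the median of all transcripts tested.

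RAB21, an endosomal Rab that acts in integrin traffic, had the most readthrough reads. There were 4 and 0 in untreated cells and 47 and 33 in G418, over the longest counted stretch of the family, 405 nt. The RRTS of RAB21 was 2.37% and 0% against 19.96% and 15.5%, and it rose by 3.31 ± 0.549 on the log2 scale with an adjusted p of 1.0e-08 and a pooled ratio of 10.3 (3.87 to 38.7). Both G418 values lay above both untreated ones.

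Recycling and delivery to the plasma membrane were represented by 3 tested genes. RAB11B, a Rab of recycling endosomes, had 2 and 0 reads against 14 and 22, and RRTS of 2.52% and 0% against 19.8% and 34.7%. RAB11B rose with an adjusted p of 2.19e-06 and a pooled ratio of 16.02 (4.13 to 137.4). RAB10, which acts in exocytosis and in glucose transporter delivery, had 2 and 1 reads against 13 and 9, and RRTS of 1.71% and 2.30% against 8.65% and 6.88%. RAB10 rose with an adjusted p of 0.0251 and a pooled ratio of 4.18 (1.26 to 21.8). RAB35, which acts in fast endocytic recycling, had 1 and 0 reads against 4 and 6, and RRTS of 1.34% and 0% against 5.40% and 10.8%. RAB35 rose with an adjusted p of 0.0336 and a pooled ratio of 7.81 (1.11 to 338.8). By the mean of the G418 replicates RAB10 and RAB35 had the lowest RRTS of the 10 genes, and their ranges overlapped each other and that of RAB2A.

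The calls for RAB10, RAB18, RAB2A and RAB35 rested on few reads. They were lost with DESeq2 (adjusted p of 0.17, 0.144, 0.0534 and 0.171), while the other 5 were kept, and each was lost when at least 1 library was left out. Without untreated A, 5 of the 10 genes rose beside 1563 of all 2827 transcripts, and without G418 B also 5 beside 1696.

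The other members were too sparse for a test, and their values are given as reads. RAB7A, the Rab of late endosomes, had 0 and 0 readthrough reads in untreated cells and 7 and 2 in G418. Its counted stretch was 12 nt, the 3′TC codon included, with RRTS of 22.4% and 7.48% in G418. RAB5A, which acts in fusion of early endosomes, had 0 and 0 against 4 and 3, also over 12 nt, with RRTS of 75.9% and 66.0%. RAB5C, its relative on the same organelle, had 1 and 0 against 2 and 2. RAB11A had 2 and 1 against 0 and 2 over 15 nt and was the only gene with more readthrough reads in untreated cells than in G418. RAB40C, which couples a Rab domain to a ubiquitin ligase, had 0 and 0 against 8 and 6, but only 42 and 14 CDS counts in untreated cells, so it missed the minimum of mRNA reads. An RRTS over 100% in a single library, as in RAB15 (129.5% in G418 A, 3 reads) and RAB22A (116.8% in G418 B, 4 reads), came with CDS counts of 11 and 63.

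By stop codon, summed RRTS in G418 was 16.4% ± 0.159 for the 8 Rab genes with UAA, 12.2% ± 3.10 for the 2 with UAG and 15.2% ± 0.152 for the 13 with UGA (SD, n = 2). Over all transcripts it was 8.91% ± 0.448, 14.97% ± 0.381 and 21.99% ± 0.657. In the whole table the values rose from UAA to UAG to UGA, without overlap. RAB21 gave 80 of the 186 UAA reads, and without it the other 7 UAA genes were at 15.7% ± 2.30, or 14.05% and 17.3% in G418 A and B, which overlaps the values of the UAG (9.98% and 14.4%) and UGA (15.1% and 15.3%) genes. These sums were not tested.

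The second comparison concerned how many ribosomes were on the Rab CDS. Ordered by their mean over the libraries, levels per length (RPKM) spanned from RAB11A at 424.7, 353.7, 354.5 and 319.6 RPKM in untreated A, untreated B, G418 A and G418 B to RAB15 at 2.22, 1.70, 2.36 and 2.80, whose range overlapped those of RAB39B, RAB4B and RAB6B. RAB7A was next to RAB11A, with 307.7, 258.9, 310.2 and 290.6 RPKM, followed by RAB1A and RAB1B. In untreated cells RAB1A (199.3 and 177.6) and RAB1B (201.3 and 195.7) overlapped, and in G418 RAB1A (255.5 and 238.04) lay above RAB1B (197.9 and 165.9). RAB5C, RAB2A, RAB10 and RAB8A came next, between 103.3 and 178.9 RPKM in every library, with overlapping ranges. RAB3A, RAB3B and RAB3C, Rabs of regulated secretion in neurons and endocrine cells, ranged from 3.16 to 21.2 RPKM. Rab CDS reads made up 0.222% and 0.206% of CDS reads on transcripts in all libraries in untreated replicates and 0.243% and 0.239% in G418.

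**Figure D2:**
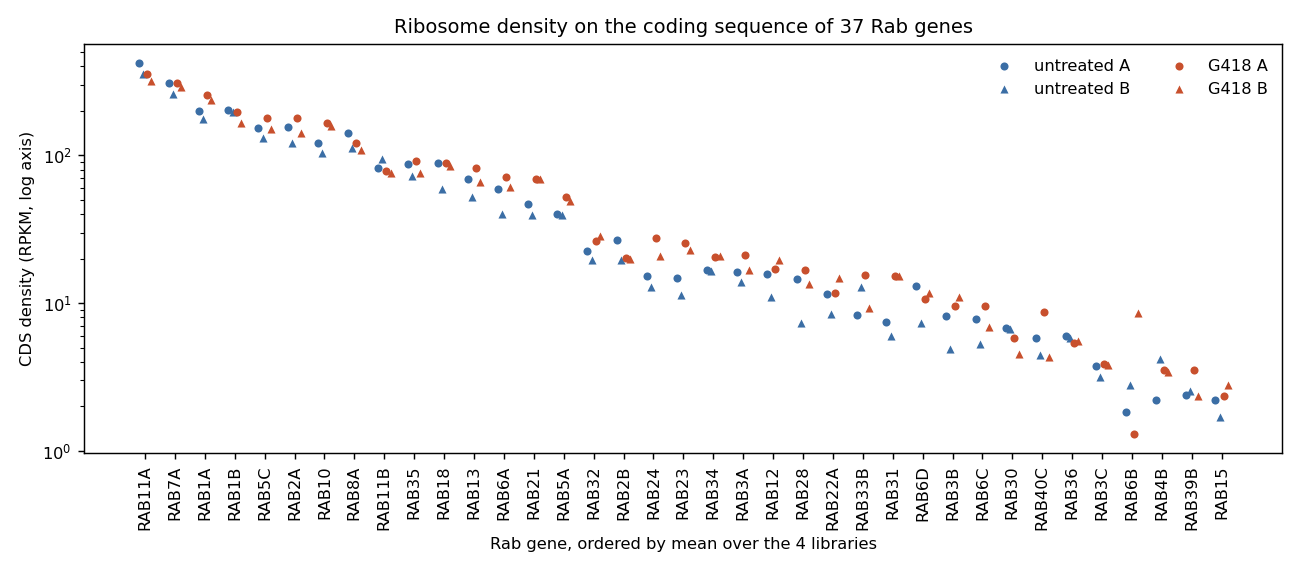
CDS density in RPKM (log axis) of the 37 Rab genes, ordered by their mean over the libraries. Each point is a library, blue untreated and orange G418, circle replicate A and triangle replicate B. RAB11A and RAB7A lie highest, and RAB31, RAB23 and RAB24, further down, have both G418 points above both untreated points.

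After filtering on low counts, 36 of the 37 genes were tested (RAB6B, with 1 to 12 counts per library, was not). CDS reads of 6 Rab genes rose in G418 and those of 1 fell, by edgeR's quasi-likelihood test on deposited counts with TMM normalization and Benjamini-Hochberg adjustment. Of all 8494 transcripts tested, 5.31% rose and 3.21% fell. The median log2 fold change of the Rab genes was 0.20 and that of all transcripts 0.00. Fold changes were positive in 27 of the 36 Rab genes and in 4280 of the 8494 transcripts. Scaling by total counts moved the median of all transcripts to 0.11 and that of the Rab genes to 0.31. The numbers of all transcripts that rose and fell, 451 and 273, became 887 and 120, and for the Rab genes 6 rose and 0 fell. RPFs alone cannot tell more mRNA from more ribosomes per mRNA, nor fewer cells from less RNA per cell.

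RAB31, a Rab of the trans-Golgi network and early endosomes, rose most. Its CDS density was 7.47 and 6.02 RPKM in untreated A and B and 15.3 and 15.3 in G418, from 37, 13, 70 and 65 counts. The log2 fold change was 1.06 ± 0.243 (SE), with an adjusted p of 0.00493. RAB21, also endosomal, had 46.7 and 39.5 RPKM against 69.3 and 68.7, and its log2 fold change was 0.59 ± 0.127, with an adjusted p of 0.00280. Of the early endosome list 5 genes were tested, and RAB5A, RAB5C and RAB22A were not called, with log2 fold changes of 0.29, 0.13 and 0.27.

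RAB23, which acts in the primary cilium and restrains hedgehog signaling, had 14.8 and 11.3 RPKM in untreated cells and 25.6 and 22.98 in G418. It rose by 0.77 ± 0.178 on the log2 scale, with an adjusted p of 0.00493. RAB28 and RAB34 of the same list were not called (0.26 and 0.25). RAB24, an atypical Rab linked to autophagy, had 15.3 and 12.9 RPKM against 27.4 and 20.7 and rose by 0.68 ± 0.19, with an adjusted p of 0.0221. The other 3 genes of the late endosome, lysosome and autophagy list were RAB7A, at a log2 fold change of 0.01 with an adjusted p of 0.972, RAB12 at 0.32 and RAB32 at 0.30. In each gene that rose the G418 libraries lay above the untreated ones without overlap.

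RAB10 had 121.2 and 103.3 RPKM in untreated cells and 165.9 and 157.8 in G418, and rose by 0.45 ± 0.104 on the log2 scale, with an adjusted p of 0.00552. RAB1A rose by 0.31 ± 0.0952, with an adjusted p of 0.0345. The other 10 tested genes of the endoplasmic reticulum and Golgi list were not called, among them RAB1B at −0.20 ± 0.0993 with an adjusted p of 0.232. RAB11A was the only Rab gene that fell, with a log2 fold change of −0.28 ± 0.0894 and an adjusted p of 0.0426. Its RPKM values overlapped between conditions (353.7 in untreated B and 354.5 in G418 A), and the call was lost with total counts (adjusted p of 0.192). RAB11B, RAB8A, RAB13 and RAB35, which also act in recycling or delivery to the plasma membrane, were at −0.25, −0.23, 0.19 and −0.01 and were not called.

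**Figure D3:**
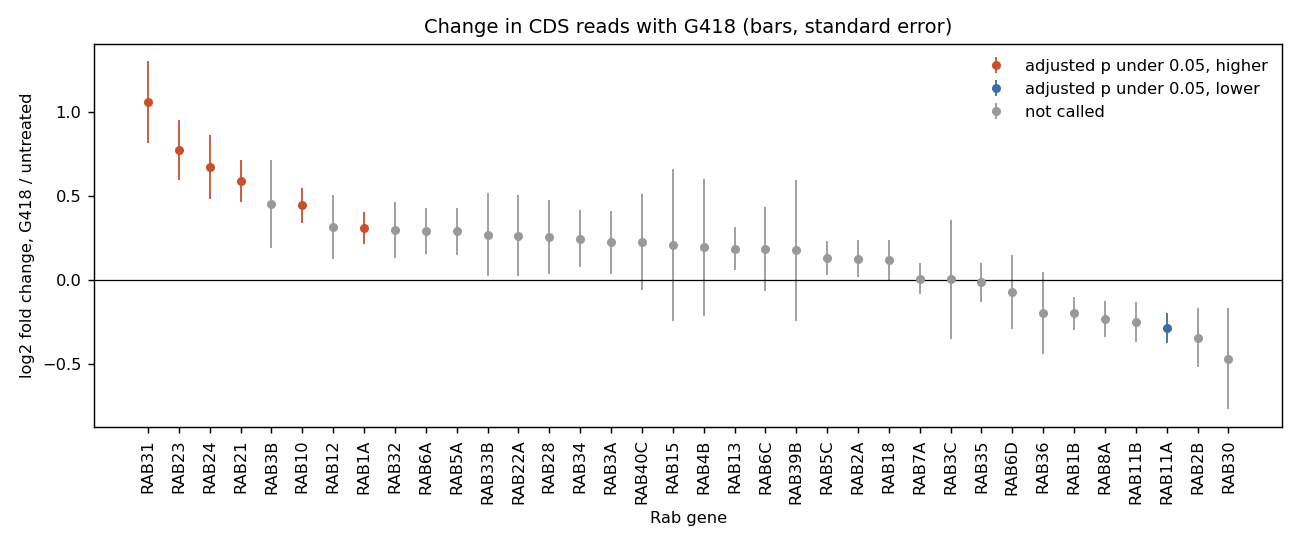
Log2 fold change of CDS reads in G418 over untreated cells (vertical axis) for 36 Rab genes, ordered by size, with the standard error from edgeR's fit as bars. Orange marks the 6 genes that rose, blue RAB11A, which fell, and gray the genes not called. RAB31 lies highest at 1.06.

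With either G418 library left out, 0 Rab genes were called in either direction. The test then took its spread from the untreated pair and assumed that the lone G418 library varied alike, and the fold changes of the 7 genes kept their sign. RAB21 was then at 0.64 and 0.55 and RAB11A at −0.30 and −0.26. Over all transcripts the number that rose dropped likewise, to 63 and 57. DESeq2 called RAB10 and RAB21 higher and 0 lower, of the 25 Rab genes for which it gave an adjusted p, which did not include RAB31.

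The third comparison was of reads on the 5′UTR relative to the CDS, where ribosomes scan and translate upstream reading frames. In the deposited tables the 5′UTR length of 33 transcripts was 0 or less, and their 5′UTR counts repeated about the whole mRNA. RAB8A and RAB34 were among them, with 813 5′UTR counts against 752 CDS counts for RAB8A in untreated A, so these values were not used. With a minimum of 20 5′UTR reads in all and a mean of 32 CDS reads per library, 16 Rab genes were tested. The ratio fell in 3 of them and rose in 0, by edgeR's quasi-likelihood test with CDS counts as offset. Of all 4150 transcripts tested, 1.57% fell and 0.0482% rose. With DESeq2 RAB21 kept its call (adjusted p of 0.0273), and those of RAB1A and RAB10 were lost (0.0525 and 0.0605). The median log2 fold change was −0.36 for the Rab genes and −0.22 for all transcripts.

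RAB21 had 105, 55, 80 and 61 5′UTR counts in untreated A, untreated B, G418 A and G418 B, or 39.0, 55.6, 21.4 and 17.99 per 100 CDS counts. The ratio fell by 1.21 ± 0.272 (SE) on the log2 scale, with an adjusted p of 0.0170. RAB1A had 76 to 202 5′UTR counts per library, or 19.4, 18.8, 10.2 and 10.3 per 100 CDS counts. Its ratio fell by 0.90 ± 0.221, with an adjusted p of 0.0291. For RAB10 the counts were 364, 172, 307 and 278, or 59.0, 75.1, 38.8 and 40.3 per 100 CDS counts, and the ratio fell by 0.75 ± 0.18, with an adjusted p of 0.0256. In all 3 genes both G418 ratios lay below both untreated ones.

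**Figure D4:**
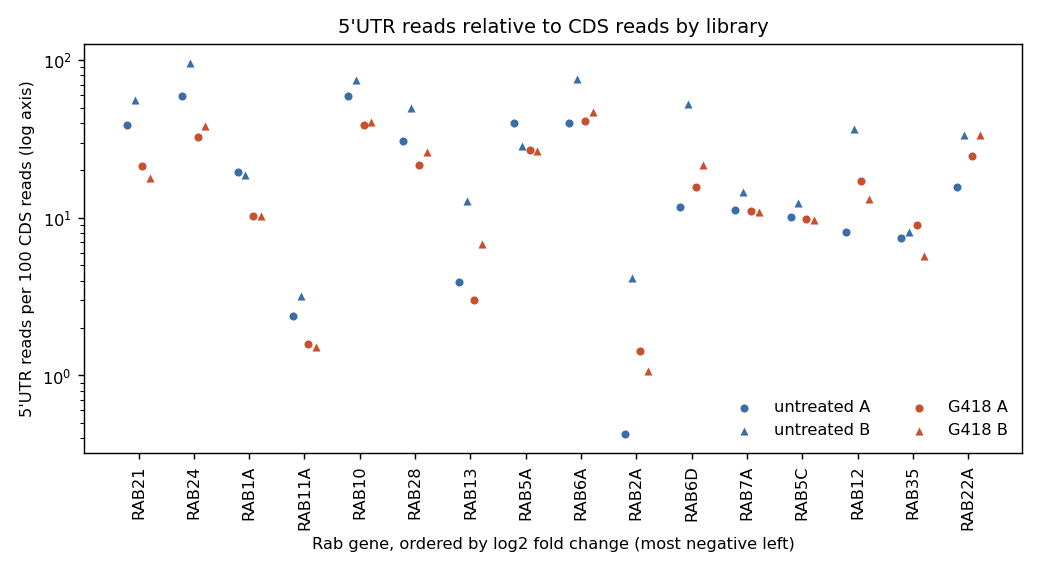
5′UTR reads per 100 CDS reads (log axis) of the 16 Rab genes tested, ordered from the most negative log2 fold change. Each point is a library, blue untreated and orange G418, circle replicate A and triangle replicate B. RAB21, RAB1A and RAB10 are the 3 that passed the test, and in RAB6D, RAB12, RAB13 and RAB2A untreated B lies far above untreated A.

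RAB21, RAB1A and RAB10 were also among the 6 Rab genes whose CDS reads rose. Since CDS reads are the denominator of the ratio, the comparisons are not independent. The fourth gene that rose and had enough 5′UTR reads, RAB24, had 59.5, 96.6, 32.6 and 38.04 per 100 CDS counts and was not called (log2 fold change −1.05, adjusted p of 0.115). Over all transcripts, 308 of the 451 that rose in CDS reads were tested here and 27 of them fell, which is 8.77% of those 308 and 41.5% of the 65 that fell. Scaled to mRNA reads, RAB21 had 17.3 and 22.5 5′UTR RPM (reads scaled to the mRNA reads of the library) in untreated cells and 14.3 and 12.8 in G418, RAB1A 33.4 and 31.1 against 22.7 and 23.1, and RAB10 59.8 and 70.5 against 54.2 and 58.6. Tested against library size in place of CDS reads, none of the 3 was called, with log2 fold changes of −0.61, −0.59 and −0.29 and adjusted p of 0.217, 0.118 and 0.432. RAB11A, whose CDS reads fell, had 9.21 and 11.1 5′UTR RPM against 5.28 and 5.04, and in that test it fell by 1.07 with an adjusted p of 0.0491.

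The other 13 genes were not called. The log2 fold change was negative in 15 of the 16 genes, beside 2757 of all 4150 transcripts tested. RAB11A had 2.39, 3.18, 1.58 and 1.52 5′UTR counts per 100 CDS counts (log2 fold change −0.79, adjusted p of 0.255). RAB28 had 30.5, 50, 21.6 and 26.2 (−0.57, adjusted p of 0.573). RAB7A had 11.2, 14.6, 11.0 and 10.9 5′UTR counts per 100 CDS counts (log2 fold change −0.21, adjusted p of 0.695) and RAB5C 10.1, 12.3, 9.83 and 9.69 (−0.17, adjusted p of 0.813). RAB6A, RAB5A, RAB24 and RAB10 were the 4 of the 16 genes with at least 26.7 5′UTR counts per 100 CDS counts in every library. Untreated replicate B held more 5′UTR reads than the other libraries, 5.58 per 100 CDS reads over the whole table against 4.86 (untreated A), 4.74 (G418 A) and 4.87 (G418 B). Without it the median log2 fold change of the 16 genes was −0.04, and without untreated A it was −0.98. As over all transcripts (see the closing section), the number of the 16 that were called moved too. Without either G418 library none was called. Upstream AUG codons were found in the annotated 5′UTR of 9 of 27 Rab transcripts whose 5′UTR length matched (33.3%) and of 41.8% of all 6775 such transcripts. RAB21 and RAB1A had none and RAB10 had 1.

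The genes that serve the Rab cycle were described from lists of Rab partners. Escort, prenylation and extraction factors were represented by 10 of 14 listed genes. CHM, the Rab escort protein REP1, had 17.7, 16.1, 17.3 and 16.97 RPKM in untreated A, untreated B, G418 A and G418 B and a log2 fold change of CDS reads of −0.06 (adjusted p of 0.835). RABGGTA, the alpha subunit of Rab geranylgeranyl transferase, had 16.4, 17.5, 14.8 and 16.9 RPKM and a log2 fold change of −0.15 (adjusted p of 0.580). CHML and RABGGTB were not among the transcripts in all 4 libraries. GDI2, a GDP dissociation inhibitor that extracts Rabs from membranes, was not called either, at 318.01, 254.2, 300.5 and 270.8 RPKM with a log2 fold change of −0.08. In this list YIPF2, a Golgi membrane protein that binds Rabs, rose by 0.58 (adjusted p of 0.0161) and RABAC1, the prenylated Rab acceptor, fell by 0.37 (adjusted p of 0.0196). DESeq2 called 0 genes of this list in either direction, as did leaving out either G418 library, and with total counts 2 rose and 0 fell.

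Of 36 guanine nucleotide exchange factors, which load Rabs with GTP, 1 rose in CDS reads (CCZ1, log2 fold change 0.36, adjusted p of 0.0395) and 0 fell. Of 24 GTPase activating proteins, which switch Rabs off, TBC1D22A rose (0.57, adjusted p of 0.0397) and 0 fell. Of 50 effectors, RABEP1, the RAB5 effector rabaptin, rose (0.45, adjusted p of 0.0138) and 0 fell. Over these lists and that of escort, prenylation and extraction factors, 4 of 120 genes rose and 1 fell, beside 5.31% and 3.21% of all transcripts, with a median log2 fold change of 0.02. These calls were not stable, as over the same genes 0 were called in either direction by DESeq2 or without either G418 library. With total counts 12 rose and 0 fell. The median log2 fold change was 0.06 without untreated A and 0.01 without untreated B. Over all transcripts the numbers called moved with these settings too, as given above for total counts and in the closing section. Of 6 other prenylation enzymes, ICMT, which methylates prenylated cysteines, rose by 0.53 (adjusted p of 0.00882), and 0 of the 6 were called by DESeq2 or without either G418 library. CCZ1 has a near-identical copy, CCZ1B, which was not called (log2 fold change 0.34, adjusted p of 0.0635). Reads of the 2 may not be separable, which was not measured.

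The lists also held other small GTPases with a prenylated C terminus, of the Ras, Rap, Rac and related groups. In CDS reads 11 of 20 of them rose and 1 fell, beside the 5.31% and 3.21% of all transcripts, and the median log2 fold change was 0.42. RHOF rose by 1.02 ± 0.318 (SE, adjusted p of 0.0393), RAP2A, a Ras relative, by 0.94 ± 0.272 (adjusted p of 0.0255) and RAC3, a Rac of neural tissue, by 0.93 ± 0.136 (adjusted p of 4.13e-05). RAC3 had 38.8 and 37.2 RPKM in untreated cells and 80.8 and 71.2 in G418. RHEB, HRAS, RAP2B, RRAS2, RHOB, RAP1A, NRAS and RAC1 made up the rest of the 11, with log2 fold changes from 0.37 (RAC1) to 0.90 (HRAS). CDC42, which controls cell polarity, fell by 0.49 ± 0.0947 (adjusted p of 0.000897). The median of the 20 genes was 0.41 without G418 A, 0.48 without G418 B, 0.45 without untreated A and 0.34 without untreated B. Fewer of the 20 were called without either G418 library, as over all transcripts, and without untreated A. DESeq2 called 3 higher of the 15 for which it gave an adjusted p, and fewer of all transcripts too (see the closing section). In 5′UTR reads per CDS read 1 of 14 was called, beside 1.57% of all transcripts that fell. This was RHOA, a regulator of the actin cytoskeleton, which fell by 0.77 ± 0.151 (adjusted p of 0.00657) with 795, 346, 469 and 388 5′UTR counts. The Rab-like genes outside the naming rule included RABL6, which rose by 0.85 (adjusted p of 0.000319), as 1 of 7. The difference between the Rab genes and these lists was not tested.

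In each list named here readthrough rose in most tested genes, beside the 82.6% of all transcripts that rose. The minimum of readthrough reads favors genes high in G418 here too. It rose in 5 of 7 escort and extraction genes, 8 of 9 exchange factors, 5 of 7 activating proteins, 9 of 9 effectors, 5 of 5 other prenylation enzymes and 9 of 10 other small GTPases, and it fell in 0. GDI2 had 3 and 0 readthrough reads in the untreated replicates and 14 and 10 in G418. YIPF5 had 1 and 0 against 15 and 24, and YIPF3 1 and 0 against 11 and 7. The exchange factor subunits TRAPPC3 and TRAPPC1 had 1 and 0 against 25 and 21 and 0 and 1 against 27 and 23, and CCZ1B had 0 and 0 against 6 and 6. CCZ1, from which its reads may not be separable, had 0 and 0 against 5 and 1 and was not tested. Among the activating proteins TBC1D5 had 0 and 0 against 7 and 5, TBC1D7 0 and 0 against 6 and 6 and TBC1D4 1 and 0 against 9 and 11. Of the effectors EXOC6B, APPL1 and RUFY1, RUFY1 had the most reads, 1 and 2 against 22 and 15. RCE1, which trims prenylated proteins, had an RRTS of 190.7% and 156.4% in G418 from 8 and 6 reads, and ZMPSTE24 and FDPS were the others with the largest fitted changes among the prenylation enzymes. CDC42 had 8 and 4 reads against 67 and 45, an RRTS of 3.14% and 4.06% against 35.3% and 33.1%. The Rab-like genes RABL3, IFT27 and IFT22 all rose, RABL3 with 1 and 0 reads against 15 and 19. CHM, with 0 and 0 against 4 and 2, and RABGGTA, with no readthrough read, had too few for the test.

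Some Rab counts can include reads of near-identical genes, since the authors kept 1 alignment for reads that fit several places. Of the 28-nt words of the CDS, 94.4% in RAB6D, 91.1% in RAB6C and 42.7% in RAB6A were found in transcripts of other genes, chiefly each other's, and 40.6% of those of RAB1B in RAB1C. Those of RAB5C (76.8%) and RAB13 (100%) were found mostly in loci with no gene symbol. RAB4B shared all of its words with the read-through loci RAB4B-EGLN2 and MIA-RAB4B, and RAB24 with transcripts of its neighbor MXD3. In RAB21, RAB10, RAB11B, RAB32 and RAB35 no word was shared, and in RAB1A 9.81% were, with RAB1AP1 and RAB1AP2.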

How the data were processed

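RPFs were sequenced from 2 untreated and 2 G418-treated HEK293T cultures. The authors collapsed duplicates by molecular identifier, removed noncoding RNA, aligned with STAR to hg38 and counted fragments of 28 to 35 nt on 1 transcript per gene. The deposited counts are unnormalized reads per 5′UTR, CDS and 3′UTR. The deposited RPM values are those reads scaled to library size, and the authors' RPKM values divide them by region length, without 18 nt after the start codon and 15 nt before the NTC of each CDS. The deposited ratio is RRTS. The authors' 5′UTR densities, a score here, were left aside.

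Whole reads were recovered from RPM (100% of values were whole multiples of 1 read, within 0.01 read). The deposited counts equal them or lie 1 below. RRTS was tested on recovered reads, other regions on deposited counts, with edgeR 4.0.16 and, as alternatives, DESeq2 1.42.0 and limma 3.58.1, in R 4.3.3, over all transcripts with Benjamini-Hochberg adjustment at 0.05. Further alternatives were other read minimums, scalings, the whole 3′UTR, a replicate block and leaving out each library. P-values set the difference between conditions against the spread between 2 replicates, which the tests estimate partly from all transcripts. Intervals are 95% exact conditional (Clopper-Pearson) ones, and 3 reads per library were taken as the smallest detectable count. Transcripts below 1.00 RPKM on the CDS are in none of the tables. The tests were checked on simulated data. Python 3.11.15 was used for the remaining steps.

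In RRTS all 10 tested Rab genes are named with their statistics, in CDS and 5′UTR reads every gene called, and of each list of partners up to 3 called genes with the largest fitted change in each comparison. Some genes that this rule or the lists hold are not reported here. The Rab genes, the lists and the tests were chosen with earlier results of these data known. Transcripts with a 5′UTR length of 0 or less were left out of the 5′UTR test, a choice made after the tables were seen.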

Additional observations from a re-analysis of the deposited data

How the results depend on the processing

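Untreated B held 5 Rab readthrough reads, which limits the untreated readthrough values. DESeq2 called fewer Rab genes, 5 higher in RRTS, 2 higher and 0 lower in CDS reads and 1 lower in 5′UTR reads per CDS read, and total counts left 0 lower in CDS reads. Leaving out 1 library gave 5 to 8 Rab genes higher in RRTS, 0 to 9 higher and 0 to 3 lower in CDS reads, and 0 to 5 lower in 5′UTR reads per CDS read. Over all transcripts, leaving out 1 library gave 1496 to 2265 higher in RRTS, 57 to 990 higher and 15 to 1092 lower in CDS reads, and 1 to 363 lower in the 5′UTR ratio. A group left with 1 library was assumed to vary like the other. DESeq2 called 1372 transcripts higher in RRTS (2336 by edgeR), 109 higher and 134 lower in CDS reads (451 and 273) and 41 lower in the 5′UTR ratio (65). The minimum of readthrough reads changed how many were tested: at least 20 gave 1536 higher of 1662 and 6 of 7 Rab genes, and at least 5 gave 2701 of 4076 and 13 of 17. Reads on the whole 3′UTR gave 2871 of 4085 and 12 of 16. Testing 5′UTR reads against library size, an alternative chosen after seeing the data, called 1 Rab gene lower (RAB11A) and 131 transcripts. Keeping 5′UTR lengths of 0 or less, also added then, left 3 Rab genes lower. RAB7A, not called in CDS reads, ranged in log2 fold change from −0.052 to 0.079 when 1 library was left out, negative without untreated B.

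Summed RRTS of the Rab genes depended on how it was summarized. The median over the 23 genes was 0.598% in untreated cells and 10.96% in G418, below the all-transcript medians of 19.97% and 18.04% in G418 A and B, the mean was 18.6% in G418, and the 15 genes that met a stricter minimum of mRNA reads gave 14.02% in G418. Single libraries ranged from 1.11% to 2.06% untreated and from 14.8% to 15.7% in G418. Without RAB21, which had the most readthrough reads, the means were 1.65% and 14.7%.

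Libraries of both conditions share the letters A and B, but nothing in the labels says that a letter marks a shared batch. Deviations from the condition means correlated at 0.136 across 8494 transcripts for CDS reads and at 0.00468 across 2827 for RRTS, and with 2 pairs this does not show pairing. With the letter as a replicate block, 6 Rab genes were higher in RRTS, without RAB10, RAB18 and RAB35 (adjusted p of 0.0564, 0.0535 and 0.192), beside 1852 of all 2827 transcripts. Of the Rab genes 6 were then higher and 1 lower in CDS reads and 4 lower in 5′UTR reads per CDS read, and over all transcripts 618 were higher and 452 lower in CDS reads and 221 lower in the 5′UTR ratio.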
